A study of Mus musculus with 6 samples.

Results

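The loci of human chromosome 13 are described here in 6 xenograft tumours of A375, an established human melanoma cell line. A locus is a group of transcript events (start sites, end sites, skippable exons, introns and alternative exon ends) that share 1 locus identifier in the deposited lists. All loci that the lists place on chromosome 13 are described. They number 289 of the 15234 loci of the series, with 171 on the plus strand and 118 on the minus strand, and they lie between positions 19107968 and 115092796. The chromosome was chosen by the measured abundance itself: its loci were slightly higher in all ZLD1039 tumours than in the vehicle tumours. Every difference between the 2 groups is therefore given as a description, and counts from a fit over all loci are printed beside it without being read as support.

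The tumours were grown under the skin of BALB/c nude mice, which lack T cells, and both groups carried the same graft, with the genotype labelled WT. Once the tumours were established, 5 mice were dosed orally every day with 100 mg/kg of ZLD1039 and 5 with vehicle. RNA was sequenced from 3 vehicle tumours and 3 ZLD1039 tumours of day 27. ZLD1039 is an inhibitor of EZH2. Although the mouse is the organism given, chromosome numbers run to 22, as in the human genome, and host RNA counted there cannot be told apart from that of the graft. In such bulk tumours fewer cells of a type and less RNA per cell cannot be told apart. Whether the tumours are from 3 different mice of a group is only implied.

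EZH2 is the enzyme of the Polycomb repressive complex that methylates a histone tail and helps to keep developmental genes silent. An inhibitor of it lowers that mark, and genes that depend on the mark for silencing may then be transcribed. Human chromosome 13 is acrocentric: its short arm holds ribosomal RNA repeats and hardly any other genes, and its long arm is among the gene-poor arms of the genome, with wide stretches that hold few genes. The retinoblastoma gene, which encodes a brake on the cell cycle, lies on that arm. The lists pair loci with Ensembl identifiers but not with gene names, and no human annotation was used here. Loci are therefore given by position and strand, with identifiers for the leading ones only, their functions are not given, and the melanoma label was not checked against marker genes.

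Abundance is in FPKM, a read abundance scaled to transcript length and library size. The value of a locus in a tumour is the largest of its summed start sites, its summed end sites and its largest event. The depth is unknown and counting error is not given. The 6 lists held 12114 to 12758 loci and 117347 to 126622 events each. ZLD1039 tumour 2 stood apart from the rest over all loci, with a mean correlation of 0.919 with the other tumours against 0.934 to 0.943 for each of the others. Values without it, or ranges with 1 tumour left out, are given beside the main results that rest on it.

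Vehicle tumours 1, 2 and 3 listed 230, 227 and 225 of the 289 loci, and ZLD1039 tumours 1, 2 and 3 listed 227, 219 and 231. All 6 tumours listed 189 of them. To enter the fit a locus had to average 1 FPKM or more in either group, which 199 did, 184 of them with a listing in every tumour. Of the 199, 11 reached 1 FPKM under ZLD1039 only and 5 under vehicle only, so that these had to differ. The other 90 stayed below it, and 60 of these were listed in only 1 or 2 tumours. A locus that is not listed counts as 0 here, although it need not be silent.

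The 199 loci are set beside the other 10635 here as a description, with no test. Their median abundance was 7.91 FPKM against 8.01 FPKM elsewhere. Their median length from the first to the last event was 50.2 kb against 29.7 kb, and they held a median of 8 events against 10, with a median of 2 start sites in both. A single start site was listed for 33.7% of them and for 26.0% of the other loci. An Ensembl identifier was attached to 96.0% against 98.9%.

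In each tumour the loci of the chromosome deviated by a small amount at the median. Relative to the mean of all 6 tumours, the median locus deviated by -0.03, -0.08 and -0.05 in vehicle tumours 1, 2 and 3 on the scale of log2(FPKM + 1). It deviated by 0.05, 0.10 and 0.05 in ZLD1039 tumours 1, 2 and 3. All 3 treated tumours thus lay above all 3 vehicle tumours, as the pick requires. The loci of the other chromosomes had median deviations of -0.017, -0.009 and 0.04 in the vehicle tumours and -0.007, 0.012 and 0.04 in the ZLD1039 tumours. Measured against those, chromosome 13 lay lower by 0.014, 0.07 and 0.09 in the vehicle tumours and higher by 0.06, 0.09 and 0.011 in the ZLD1039 tumours. ZLD1039 tumour 3 and vehicle tumour 1 therefore stood nearly level with the rest of the genome, and the other 4 tumours carried most of the distance.

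**Figure D1:**
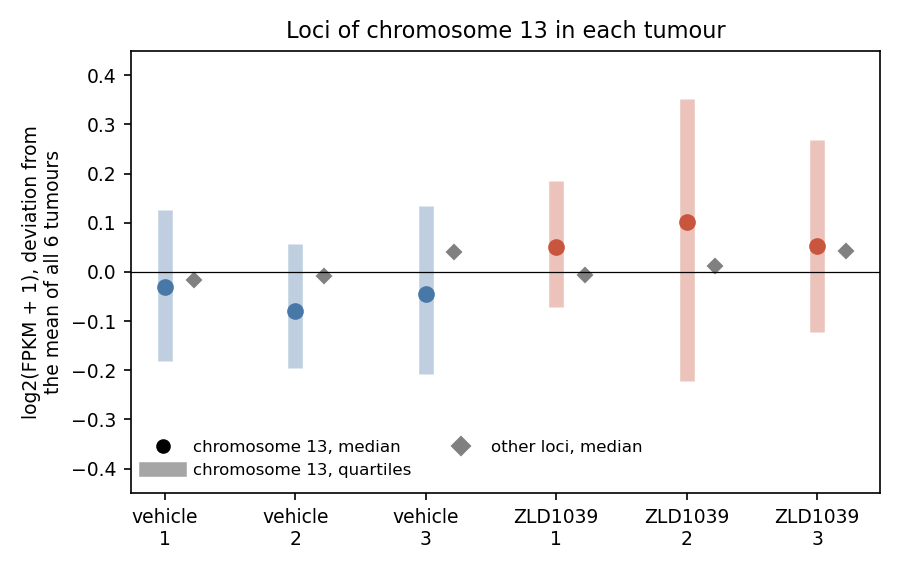
Median (points) and quartiles (bars) of the deviation of the 199 chromosome 13 loci from their mean over all 6 tumours, in log2(FPKM + 1), for each tumour, with the median of the other 10635 loci as grey diamonds. The vehicle medians lie between -0.08 and -0.03 and the ZLD1039 medians between 0.05 and 0.10, while the quartiles of all tumours include 0.

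The spread within the chromosome was wider than the shift. The quartiles of the deviations ran from -0.22 to 0.35 in ZLD1039 tumour 2, the widest of the 6, and from -0.07 to 0.18 in ZLD1039 tumour 1. Loci above the mean of all tumours numbered 122, 122 and 121 of 199 in the ZLD1039 tumours (61.3, 61.3 and 60.8%). The shares of the other loci there were 48.8, 51.3 and 55.6%. In the vehicle tumours they numbered 86, 65 and 77 (43.2, 32.7 and 38.7%), against 47.4, 48.4 and 56.2% of the other loci. ZLD1039 tumour 2 held the highest value of the 6 at 71 loci (35.7%, against 26.4% of the other loci) and ZLD1039 tumour 3 at 53. The same tumour 2 also held the lowest value at 45 loci (22.6%, against 24.5% elsewhere). Vehicle tumour 2 was highest at 11 loci only (5.53%, against 12.1% elsewhere).

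The median log2 difference between the groups, ZLD1039 minus vehicle, was 0.12 over the 199 loci and 0.019 over all 10834 loci that entered the fit. The middle 50% of the chromosome's loci lay between -0.06 and 0.29, and the extremes were -0.91 and 1.22. A difference above 0 was found at 129 loci (64.8%), where the share over all loci was 52.8%. The groups did not overlap at 44 loci: all ZLD1039 tumours were higher at 38 of 199 (19.1%, against 5.75% of all loci) and all were lower at 6 (3.02%, against 5.2% of all loci). These shares restate the pick in another form. Over the 183 loci that averaged 1 FPKM or more in both groups, the median was again 0.12, with 37 loci all higher and 2 all lower. Of all 10148 such loci of the series, 5.66% were all higher and 4.53% all lower. Among 23 chromosomes the median of chromosome 13 was the highest, followed by 0.08 on chromosome 10 and 0.07 on chromosome 5. Without ZLD1039 tumour 2 the median was 0.11 and 136 loci lay above 0. Without ZLD1039 tumour 3 it was 0.15.

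For description only, with limma fitted over all loci, none of the 199 had a Benjamini-Hochberg adjusted p under 0.05, where 2 of 10834 did (0.0185%). An unadjusted p under 0.05 was reached by 11 of the 199 (5.53%, near the 4.94% of all loci). Of these, 9 were higher under ZLD1039, a count by direction that has no share over all loci beside it. The median standard error of a log2 difference on the chromosome was 0.22 and the 95% interval spanned 0.52 each way at the median locus, which is wider than the median difference of 0.12.

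**Figure D2:**
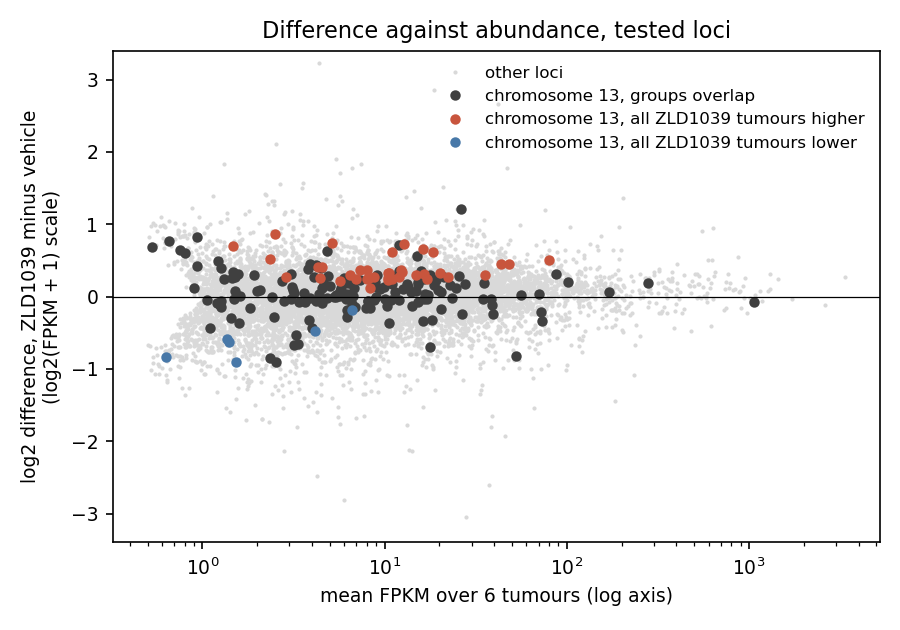
Log2 difference between the groups (ZLD1039 minus vehicle, log2(FPKM + 1) scale) against the mean FPKM over 6 tumours (log axis), 1 point per locus, with other loci in grey. Of the 199 chromosome 13 loci, 38 had all ZLD1039 tumours higher (red), 6 had all lower (blue) and the rest overlapped (dark), and the cloud sits slightly above 0.

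By level of abundance, the median differences were unequal. In the 63 loci with a mean of 10 to 30 FPKM it was largest: their median log2 difference was 0.20, 48 of them lay above 0 (76.2%, against 55.6% of the other loci of the level), and 17 had all ZLD1039 tumours higher (27.0%, against 5.99%) while none had all lower. The per-tumour medians of this level were -0.07, -0.09 and -0.08 in the vehicle tumours and 0.05, 0.22 and 0.04 in the ZLD1039 tumours. With 1 tumour left out, the median log2 difference of this level ranged from 0.15 to 0.23. Loci of 3 to 10 FPKM, 74 in number, had a median of 0.10, with 46 above 0. The 43 loci under 3 FPKM had a median of 0.08 with 24 above 0, and their groups overlapped, since ZLD1039 tumour 2 had the lowest median of all tumours there at -0.12. Without ZLD1039 tumour 1 the median of that level was -0.016, and without tumour 3 it was 0.04. Over its loci that averaged 1 FPKM or more in both groups it was 0.010.

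The 19 loci of 30 FPKM or more had a smaller median difference than the middle levels. Their median log2 difference was 0.03, below the 0.08 that the 1532 other loci of that level had. This value was unsteady: it was 0.12 without vehicle tumour 3, 0.07 without ZLD1039 tumour 2 or tumour 3, 0.14 where start sites alone and 0.12 where the largest event alone gave the value of a locus. Yet 4 of the 19 had all ZLD1039 tumours higher (21.1%, against 7.31% of the other loci of the level) and 0 had all lower. The per-tumour medians of the 19 were -0.13, -0.09 and -0.002 under vehicle and 0.09, 0.13 and 0.009 under ZLD1039, in separate groups. In the 3 lower levels chromosome 13 exceeded the other loci by 0.15, 0.09 and 0.16, from low to high abundance. The value of 0.15, under 3 FPKM, includes loci that entered the fit through the ZLD1039 group alone or the vehicle group alone. Such loci had to differ. No median without them is given for the other loci of that level, so the 0.15 is not read as an excess. Over the genome the median difference itself climbed with abundance, from -0.06 under 3 FPKM to 0.08 at 30 FPKM or more, and chromosome 13 did not follow that order. None of these contrasts between levels was tested.

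**Figure D3:**
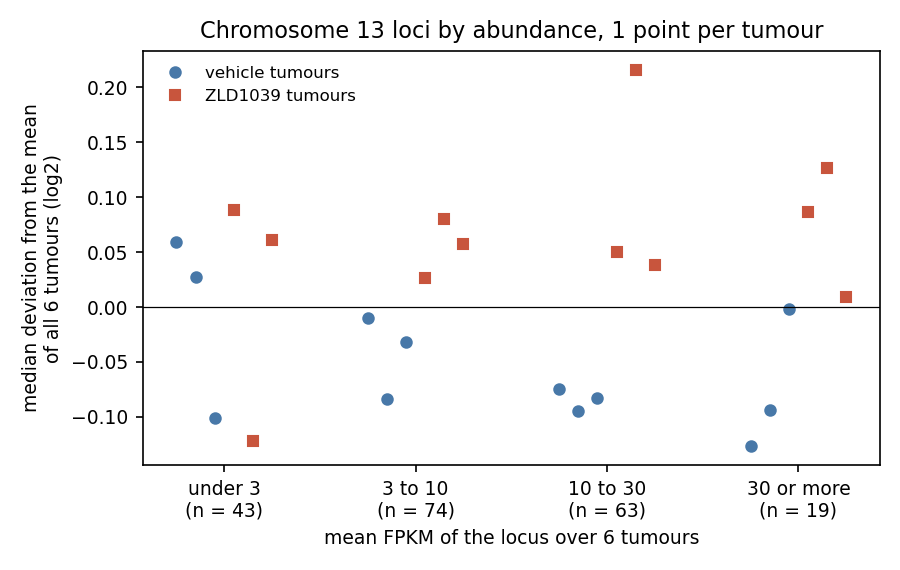
Median deviation from the mean of all 6 tumours (log2) of the chromosome 13 loci in 4 levels of mean FPKM, 1 point per tumour, with the number of loci under each level. The ZLD1039 tumours lie above the vehicle tumours in 3 levels and are mixed with them under 3 FPKM.

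The 4 loci above 100 FPKM held 40.9% of the summed mean abundance of the chromosome, and the 8 most abundant held 48.8%. The locus at 45911008 to 45915505 on the minus strand measured 954, 1052 and 1252 FPKM in the vehicle tumours and 1124, 1146 and 827 FPKM in the ZLD1039 tumours. Its means were 1086 ± 152 and 1032 ± 178 FPKM (SD, n = 3), with the highest value in vehicle tumour 3 and the lowest in ZLD1039 tumour 3. It overlaps another locus of at least 1 FPKM, so reads of the 2 may be shared. Its leading start site carried 90.1 to 95.2% of its start abundance. The summed FPKM of the chromosome was 3619, 3730 and 4109 FPKM with it and 2664, 2678 and 2857 FPKM without it in the vehicle tumours. In the ZLD1039 tumours the sums were 4069, 4329 and 3753 FPKM with it and 2945, 3183 and 2926 FPKM without it. The sum without that locus was thus higher in every ZLD1039 tumour than in any vehicle tumour, while the sum with it was not. As a share of all FPKM in the tumour, the chromosome without it took 1.12 to 1.18% under vehicle and 1.18 to 1.25% under ZLD1039, so that ZLD1039 tumour 2 and vehicle tumour 1 were level on that scale.

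Of the next most abundant loci, the one at 27825446 to 27830705 (plus strand) measured 250.3, 254 and 266 FPKM under vehicle and 274, 390.2 and 231 FPKM under ZLD1039. ZLD1039 tumour 2 was far above the rest and ZLD1039 tumour 3 below all, so the groups overlapped. The locus at 45010180 to 45150701 (minus strand) measured 160.0, 158 and 177 FPKM and 194, 146 and 182 FPKM in the same order, here with ZLD1039 tumour 2 lowest and tumour 1 highest. The 3 most abundant loci thus showed no ordering by treatment, and the sign of each of their log2 differences depended on which tumours entered. Only 1 further locus reached a mean of 100 FPKM, the one at 31035032 to 31191734 (minus strand), with 73.6, 101 and 112 FPKM under vehicle and 88.5, 119 and 119 FPKM under ZLD1039. Its log2 difference was 0.20, and 0.02 without vehicle tumour 1.

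The abundant loci differed in direction among themselves. At 29233241 to 29253062 (plus strand) the vehicle tumours measured 73.9, 74.8 and 81.1 FPKM and the ZLD1039 tumours 81.0, 133 and 79.8 FPKM, so that only tumour 2 was high. The log2 difference was 0.31, and 0.07 without it. At 110958159 to 111158953 (plus strand) they measured 73.1, 82.1 and 88.5 FPKM and 80.5, 44.8 and 72.0 FPKM. There the same ZLD1039 tumour 2 was by far the lowest, the log2 difference was -0.34 (standard error 0.24), and without that tumour it was -0.09. At 48807294 to 48832372 (plus strand) the values were 66.9, 73.1 and 94.0 FPKM and 76.2, 66.8 and 58.2 FPKM, and the log2 difference of -0.21 (standard error 0.19) was -0.07 without vehicle tumour 3. Of the 8 most abundant loci, only the one at 31710762 to 31736521, described below, had groups that did not overlap.

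Among loci with a mean of at least 5 FPKM, 31 of 124 had all ZLD1039 tumours higher, against 6.33% of all 7018 such loci, and 1 had all lower, against 4.09%. The largest difference of these was at ENSG00000136122 (73302061 to 73329466, plus strand). It measured 3.82, 3.01 and 3.96 FPKM in the vehicle tumours and 5.98, 6.81 and 7.11 FPKM in the ZLD1039 tumours, which lay apart from each other by less than the gap between the groups. The means were 3.60 ± 0.51 and 6.63 ± 0.58 FPKM (SD, n = 3), a ratio of 1.84, and the log2 difference was 0.73 (standard error 0.17). The locus has a single start site and 13 events. Its skippable exon at 73305419 to 73305525 was included at 83.5, 100 and 63.0% under vehicle and 73.3, 93.3 and 100% under ZLD1039, with full overlap. With 1 tumour left out the log2 difference stayed between 0.64 and 0.80.

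ENSG00000165416 (53226844 to 53275044, plus strand) came next, with 12.8, 8.70 and 7.03 FPKM under vehicle and 13.9, 19.3 and 15.1 FPKM under ZLD1039. The highest vehicle tumour and the lowest ZLD1039 tumour were close to each other. The means were 9.52 ± 2.97 and 16.1 ± 2.83 FPKM (SD, n = 3), and the log2 difference was 0.73 (standard error 0.24). The same start site led in all 6 tumours and carried from 56.5 to 100% of its start abundance, with no ordering by group. Its exon at 53235610 to 53235705 was included at 71.9, 24.7 and 37.7% under vehicle and 32.2, 60.3 and 43.2% under ZLD1039, so the tumours of 1 group differed more than the groups.

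At 4 other higher loci every ZLD1039 tumour stood clear of the vehicle tumours, though the ZLD1039 tumours also differed among themselves. The locus at 31710762 to 31736521 (minus strand) measured 61.3, 72.0 and 63.8 FPKM under vehicle and 81.2, 101 and 101 FPKM under ZLD1039 (log2 difference 0.51, standard error 0.17). The locus at 98627885 to 98659841 (plus strand) measured 36.6, 32.9 and 40.8 FPKM and 46.8, 48.7 and 55.8 FPKM (0.45, standard error 0.16). The locus at 114239013 to 114294713 (plus strand) measured 41.1, 38.3 and 42.1 FPKM under vehicle and 49.1, 65.3 and 54.1 FPKM under ZLD1039 (0.45, standard error 0.17). The locus at 45694609 to 45858994 (plus strand) measured 17.8, 12.997 and 12.5 FPKM and 21.3, 26.2 and 20.4 FPKM (0.62, standard error 0.19). Vehicle tumour 1 was nearest to the ZLD1039 tumours there. At all 4 loci the gap between the groups was smaller than the range of the ZLD1039 tumours.

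At the remaining 4 of the 10 largest, the gap was narrow or ZLD1039 tumour 2 was far above the rest. The locus at 103418340 to 103426161 (minus strand) measured 9.11, 6.77 and 8.51 FPKM under vehicle and 9.33, 21.3 and 10.8 FPKM under ZLD1039. Its log2 difference was 0.62 (standard error 0.30), and 0.28 without ZLD1039 tumour 2. At 73632930 to 73650129 (plus strand) the values were 14.7, 10.4 and 11.8 FPKM and 15.0, 23.5 and 21.98 FPKM, a log2 difference of 0.66, and ZLD1039 tumour 1 was level with vehicle tumour 1. The locus at 41303432 to 41345309 (minus strand) measured 10.8, 9.84 and 10.8 FPKM and 12.3, 17.1 and 12.6 FPKM. Its log2 difference of 0.37 was 0.23 without ZLD1039 tumour 2, the highest. The locus at 30091004 to 30169825 (minus strand) measured 7.55, 5.34 and 6.02 FPKM and 7.73, 8.01 and 9.29 FPKM, a log2 difference of 0.36, with vehicle tumour 1 close to ZLD1039 tumour 1.

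The 1 lower locus of at least 5 FPKM was ENSG00000136141 (47127295 to 47327175, plus strand). It measured 7.34, 7.05 and 6.85 FPKM under vehicle and 6.71, 5.05 and 6.70 FPKM under ZLD1039, so that only tumour 2 lay clearly below the vehicle tumours. The log2 difference was -0.18 (standard error 0.17), and -0.07 without that tumour. The other 5 lower loci had means below 5 FPKM.

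**Figure D4:**
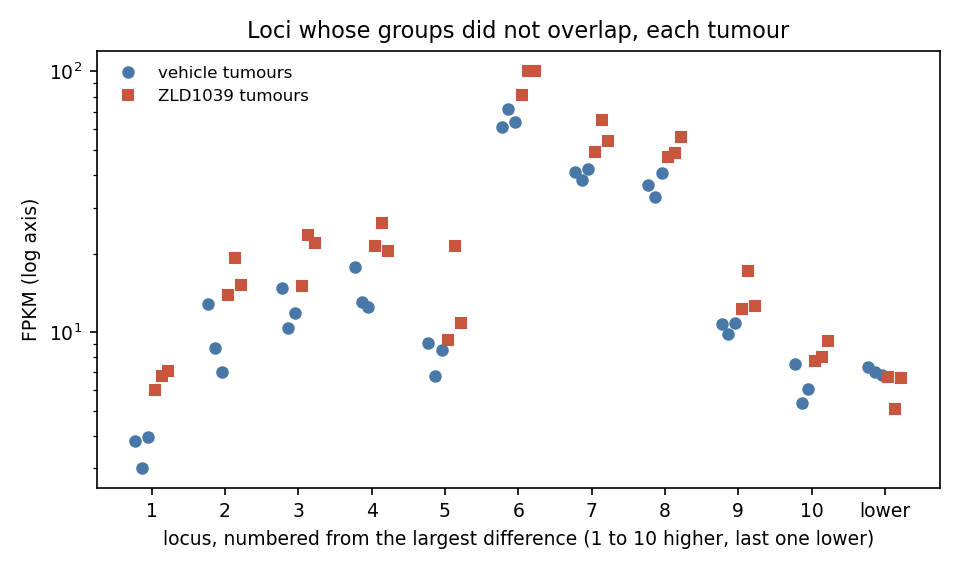
FPKM (log axis) in each of 3 vehicle tumours (blue circles) and 3 ZLD1039 tumours (red squares, tumours 1 to 3 from left to right) for the 10 largest higher loci of at least 5 FPKM whose groups did not overlap, in order of log2 difference from 0.73 to 0.36, and for the single lower one. The groups lie well apart at locus 1 and nearly touch at loci 3, 5 and 10.

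The largest log2 difference of the whole chromosome came from a locus outside these, named after its values were seen, because its groups overlapped. At 76123619 to 76430744 (plus strand) the vehicle tumours measured 14.7, 17.2 and 9.68 FPKM and the ZLD1039 tumours 14.0, 39.5 and 61.7 FPKM, a log2 difference of 1.22 (standard error 0.49). ZLD1039 tumour 1 sat among the vehicle tumours. Among the 112 chromosome 13 loci compared for their start sites, this locus had the most, 16, and no site led in all tumours. The start at 76397846 to 76398009 stood at 23.4 and 16.3 FPKM in ZLD1039 tumours 2 and 3 and at 1.13 FPKM or less in the other 4 tumours. The start at 76140846 to 76140987 stood at 17.2 FPKM in ZLD1039 tumour 3 and 11.0 FPKM in vehicle tumour 2, and at 0.12 FPKM or less elsewhere.

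Along the chromosome the higher values were spread over most windows. In 10 Mb windows by the start of the locus, 11 windows held loci that entered the fit and 10 of them had a median difference above 0. Of the 9 windows with at least 5 such loci, 6 had per-tumour medians of all ZLD1039 tumours above those of all vehicle tumours. Among the 6 is the window from 80 to 90 Mb, where 4 of 7 loci entered the fit through the ZLD1039 group alone. No such count over windows of other chromosomes is given, and this one restates the pick. The window from 20 to 30 Mb, with the most loci (37), had a median of 0.17 with 28 loci above 0. Its per-tumour medians were -0.002, -0.08 and -0.06 under vehicle and 0.03, 0.06 and 0.13 under ZLD1039, in separate groups. It also held the longest unbroken run of neighbouring loci above 0, with 11 loci from 21140585 to 23985652.

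From 70 to 80 Mb the median was 0.18 with 12 of 15 loci above 0. From 90 to 100 Mb 6 of 14 loci had all ZLD1039 tumours higher, against 5.75% of all loci. The median there was 0.18 with 10 of 14 above 0, or 0.13 over the 13 loci that averaged 1 FPKM or more in both groups. From 80 to 90 Mb it was 0.40 over only 7 loci. Of these, 4 entered the fit through the ZLD1039 group alone, 2 of them listed in a single tumour, and the median of the other 3 was 0.22. The per-tumour medians of that window were -0.24, -0.25 and -0.23 under vehicle and -0.18, 0.35 and 0.21 under ZLD1039. Its median was 0.25 without vehicle tumour 2, 0.21 without ZLD1039 tumour 2 and 0.15 without ZLD1039 tumour 3. In the window from 70 to 80 Mb ZLD1039 tumour 1 also stood near the vehicle tumours, and the median was 0.11 without ZLD1039 tumour 2.

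Between 50 and 60 Mb the median was 0.15 over 22 loci, with 14 above 0. ZLD1039 tumour 1 lay among the vehicle tumours in that window, and the median was 0.30 without it. With 1 tumour left out, the median of that window ranged from 0.11 to 0.30. From 30 to 40 Mb it was 0.07 over 28 loci, 0.16 without vehicle tumour 2 and 0.12 without ZLD1039 tumour 3. The window from 20 to 30 Mb had 0.11 without vehicle tumour 3.

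In 4 windows the sign of the median changed when single tumours were left out. From 40 to 50 Mb the median was 0.06 over 34 loci, -0.03 without ZLD1039 tumour 1 and 0.10 without vehicle tumour 3. From 100 to 110 Mb it was 0.017 over 15 loci. It was -0.05 without vehicle tumour 2, -0.07 without ZLD1039 tumour 1, -0.007 without ZLD1039 tumour 3, 0.08 without vehicle tumour 1 and 0.23 without ZLD1039 tumour 2. From 110 to 120 Mb it was 0.09 over 23 loci, -0.01 without vehicle tumour 1 and -0.006 without vehicle tumour 2, against 0.16 without vehicle tumour 3, 0.03 without ZLD1039 tumour 1 and 0.17 without ZLD1039 tumour 3. Over the 22 of these loci that averaged 1 FPKM or more in both groups it was 0.05. The window from 60 to 70 Mb, a stretch where only 3 of 12 listed loci entered the fit, had a median of -0.01, and leaving out 1 tumour gave -0.12 to 0.07. The window from 10 to 20 Mb held 1 locus in the fit.

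**Figure D5:**
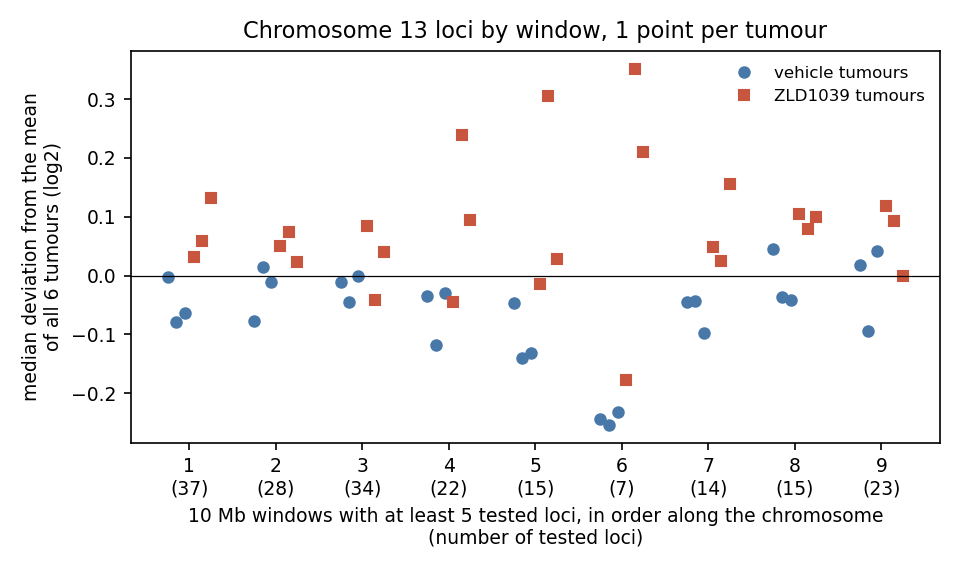
Median deviation from the mean of all 6 tumours (log2) of the chromosome 13 loci in the 9 windows of 10 Mb that held at least 5 tested loci, in order along the chromosome, 1 point per tumour, with the number of loci in brackets. The groups of points are separate in 6 windows and the ZLD1039 points spread most in the sixth, which runs from 80 to 90 Mb. In that window 4 of 7 loci entered the fit through the ZLD1039 group alone.

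Among the most abundant loci of the windows, most had groups that overlapped. At 53029564 to 53050484 (plus strand) the values were 17.8, 17.6 and 17.9 FPKM under vehicle and 18.9, 24.2 and 24.7 FPKM under ZLD1039, in separate groups, with vehicle tumours that were almost equal. At 60970591 to 61148011 (plus strand) they were 5.58, 4.69 and 5.68 FPKM and 6.23, 4.97 and 4.67 FPKM, and at 80055287 to 80130210 (plus strand) 14.7, 13.8 and 14.7 FPKM and 14.6, 16.9 and 14.4 FPKM. Both of the latter overlapped between the groups. At 107194021 to 107220512 (minus strand) they were 48.6, 61.6 and 55.2 FPKM and 69.0, 41.4 and 60.3 FPKM, with ZLD1039 tumours at both ends of the range. The locus at 19516317 to 19693018 (minus strand) measured 2.47, 3.51 and 3.44 FPKM and 3.55, 6.51 and 3.43 FPKM, with ZLD1039 tumour 2 highest. Its log2 difference was 0.38, and 0.13 without that tumour.

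The 2 strands gave similar medians, 0.10 over 106 loci of the plus strand and 0.16 over 93 of the minus strand. Loci shorter than the median length had a median of 0.16 and longer ones 0.09. Where a locus overlapped another of at least 1 FPKM, as 23 did, the median was 0.18. Of the 23, 1 had all ZLD1039 tumours higher and 0 had all lower, against 5.75% and 5.2% of all loci. The labels do not state whether strand was kept, so reads of overlapping loci may be shared.

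Neighbouring loci on opposite strands whose starts face each other at most 1000 bases apart formed 13 pairs, and 10 of them had differences of the same sign (76.9%, against 60.6% of 543 such pairs on the other chromosomes). In 9 of the 13 both lay above 0 (69.2%, against 43.3%). The leading locus ENSG00000136122 is 1 of them: it starts 235 bases from the minus-strand locus at 73282495 to 73301825. That neighbour measured 25.2, 24.7 and 27.2 FPKM under vehicle and 28.8, 35.2 and 24.3 FPKM under ZLD1039 (log2 difference 0.17, standard error 0.18, and 0.04 without ZLD1039 tumour 2). The groups overlapped at that neighbour and not at ENSG00000136122. The locus with the largest difference, at 76123619, forms another such pair, with a gap of 54 bases, and its minus-strand partner had a log2 difference of 0.43. Over all adjacent loci, 56.6% of 198 neighbour pairs on chromosome 13 and 52.1% elsewhere shared a sign. These pair shares rest on the values that chose the chromosome and were not tested. With 64.8% of its loci above 0, against 52.6% of the other loci, pairs that share a sign are more frequent from the outset.

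On chromosome 13 the lists held 2286 distinct events, of which 1084 entered the fit over all events. None of the 1084 had an adjusted p under 0.05 (limma, Benjamini-Hochberg), where 30 of 82894 did (0.0362%), and 67 (6.18%) had an unadjusted p under 0.05, against 4.7% of all events. All ZLD1039 tumours were higher at 136 events (12.5%, against 5.36% of all events) and lower at 31 (2.86%, against 4.97%). Events, like loci, entered with an average of 1 FPKM or more in either group. Any that reached it in 1 group only had to differ, and these were not counted apart, here or in the shares by kind. The 136 lay in 52 loci, with the most, 11, in the locus at 19.52 Mb. Events of 1 transcript share their values, so these counts are not independent of the loci. By kind, all ZLD1039 tumours were higher at 19.2% of alternative exon ends (5.60% over all chromosomes), 16.6% of end sites (5.34%) and 13.1% of start sites (5.19%). The shares were 10.3% of events of single skippable exons (5.65%), 10.0% of runs of skippable exons (5.64%) and 9.84% of introns (4.69%), and 0 of 14 runs of introns (3.28%).

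The chromosome held fewer intron events than the rest of the genome, 5.91% of its events against 12.5%, and more start sites (27.3% against 21.98%) and end sites (15.3% against 10.3%). Retention, the FPKM with the intron over the sum with and without it, could be followed for 30 introns in 23 loci. Their mean retention was 16.2, 15.2 and 11.9% in vehicle tumours 1, 2 and 3 and 14.6, 15.1 and 10.8% in the ZLD1039 tumours. The 3727 introns of other chromosomes had means of 18.97 to 20.9%. In all 6 tumours chromosome 13 lay lower, by 5.77 ± 1.80 percentage points (SD over 6 tumours; exact two-sided sign permutation p = 0.03125, the smallest that 6 tumours can give, and 0.125 after Benjamini-Hochberg adjustment over 4 measures, the median abundance among them). The difference thus failed the correction. It was -4.16 ± 1.98 points, again lower in 6 of 6, for the 18 introns with a mean total of 5 FPKM or more. The same exact test gave p = 0.03125, and 0.0625 after adjustment. That adjusted value is smaller than it would be without the median abundance, which had an equally small p. The median abundance rests on the values that chose the chromosome, so the adjusted value is not read as support. The tumours share 1 cell line and the same 30 introns, so the test speaks of these tumours only.

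Most of the 30 introns were rarely retained. A mean under 10% was found at 20 of them and over 50% at 2, and only 5 had any retained form in all 6 tumours. The intron at 107209479 to 107211780, in the abundant locus at 107.19 Mb, was retained at 77.9, 81.3 and 82.3% under vehicle and 84.5, 64.3 and 82.3% under ZLD1039, with ZLD1039 tumour 2 lowest. The intron at 20567704 to 20567966 was retained at 64.1, 60.5 and 65.5% under vehicle and 49.3, 0 and 33.8% under ZLD1039. It and the intron at 41936295 to 41936867 were the 2 of 30 with all ZLD1039 tumours lower, against 3.89% of all introns, and none had all higher, against 2.48%. The second measured 31.0, 19.8 and 64.6% under vehicle and 0, 10.1 and 9.6% under ZLD1039.

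Single skippable exons numbered 184 in 101 loci. Their mean inclusion was 57.7, 54.4 and 54.9% under vehicle and 53.4, 55.5 and 55.0% under ZLD1039, against 57.1 to 57.9% for the 11704 other exons. The difference from the other exons was -2.32 ± 1.49 percentage points (SD over 6 tumours), lower in 5 of 6 tumours (exact two-sided sign permutation p = 0.0625, adjusted 0.125). For the 114 exons with a mean total of 5 FPKM or more the sign turned, to 0.48 ± 1.11 points (adjusted p = 0.667 by the same exact test). Exons divided into extremes, with 67 included at over 90% and 48 at under 10%. All ZLD1039 tumours were lower at 4 of the 184, against 3.19% of all exons, and higher at 1, against 3.2%. The exon of 48 bases at 33054727 to 33054774 was included at 29.9, 58.9 and 33.2% under vehicle and 5.9, 0 and 0% under ZLD1039, and the exon at 41936867 to 41937009 at 25.7, 63.2 and 59.9% and 63.3, 84.6 and 74.7%. The latter begins at the end of the intron at 41936295 described above, so both come from 1 locus and may share reads.

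In 112 loci with at least 2 start sites the leading site carried 82.6, 84.1 and 82.8% of the start abundance on average under vehicle and 83.8, 85.2 and 82.5% under ZLD1039. The difference from 7108 other loci was 0.36 ± 0.74 percentage points (SD over 6 tumours, exact two-sided sign permutation p = 0.281, adjusted 0.344), and -0.21 points at a mean total of 5 FPKM or more. The same site led in all 6 tumours at 71 of the 112 (63.4%, against 63.6% elsewhere). At 1 locus the leading site differed between the groups and was shared within each, as at 30 loci (0.422%) elsewhere. There, in the locus at 50.12 Mb, the start at 50159580 to 50159719 carried 42.7, 41.7 and 31.7% under vehicle and 99.0, 99.6 and 52.6% under ZLD1039. The median abundance differed from that of the other loci by -0.29 ± 0.56 FPKM over 191 loci of at least 1 FPKM. It rests on the values that chose the chromosome. Its test therefore counts only as 1 of the 4 measures in the adjustment and is not read as a result. With a minimum of 5 FPKM the difference was -1.48 ± 0.81 FPKM over 124 loci (SD over 6 tumours).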

How the data were processed

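RNA of 6 A375 xenograft tumours was analysed, 3 under vehicle and 3 under ZLD1039, grouped by the sample titles. The authors deposited 1 list of transcript events per tumour with an FPKM value each, per the file headers. HTSeq 0.6.1 and bcl2fastq 2.17.1.14 appear in the submitters' processing notes. So does mm10, a mouse build, which the human positions contradict. For aligner and event caller nothing is given in the sources used here. Depth is unknown. Positions are as in the files. Each event was used once per tumour, and unlisted events counted as 0.

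Loci that averaged 1 FPKM or more in either group entered 1 fit of log2(FPKM + 1) in limma 3.58.1 (R 4.3.3), with a trended prior variance, no block and Benjamini-Hochberg adjustment over all of them. This scale understates differences of low values. The fit was tried on simulated data with planted changes far larger than the median difference on chromosome 13. That trial says nothing of shifts this small. Shares were taken where both forms of an exon or intron were listed, their sum was never 0 and it averaged 1 FPKM or more. Chromosome 13 was compared with the rest within tumours by exact sign permutation.

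The members, lists and tests were chosen with earlier results of these data known. Named loci are the 8 most abundant, the 10 largest higher and up to 5 largest lower of at least 5 FPKM without overlap, and the most abundant of each window. Planned lists of gene names and cell type markers were not run, because no table used here pairs the identifiers with human names. Event kinds, facing pairs, strands and runs were added after the files were seen. P-values reflect only how these 6 tumours vary.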

Additional observations from a re-analysis of the deposited data

How the results depend on the processing

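The median log2 difference of 0.12 on chromosome 13 was 0.067 without a filter on low values, where 289 loci entered, and 0.11 to 0.15 when single tumours were omitted. In all 14 alternatives it exceeded the median of all loci, which the scalings moved by at most 0.017. The count of 6 loci without overlap and lower was 3 with summed starts as the locus value (4.98% of all loci). It was 2 where both groups had to average 1 FPKM (4.53% of all loci), an alternative chosen after seeing the data. With 1 tumour left out, where fewer tumours must be apart, it was 7 to 17, and the 38 higher became 46 to 56. The shares over all loci rose as well, to 8.35 to 12.1% lower and 8.83 to 15.6% higher. Of all loci limma called 2, and 1 under quantile normalization, under median-of-ratios scaling, with the largest event as the value or with 0.1 as pseudocount. It called 0 without the filter, with summed starts and with the minimum in both groups, and 0 to 1 when single tumours were omitted. For these shifts the cause was not tested.

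Some windows and levels changed sign. Without the filter the median was -0.25 from 10 to 20 Mb, -0.024 from 40 to 50 Mb and -0.033 under 3 FPKM. With summed starts it was 0.29 from 60 to 70 Mb. With 1 tumour left out it ranged from -0.031 to 0.10 from 40 to 50 Mb, from -0.068 to 0.23 from 100 to 110 Mb and from -0.0099 to 0.17 from 110 to 120 Mb. Of 24 named loci, 5 took another sign in some alternative, each by less than the spread between tumours. At a minimum of 5 FPKM the difference from other loci was 0.48 points for exon inclusion and -0.21 points for the leading start site, the reverse of the signs above.

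The replicate numbers are shared by the groups but nothing says that they pair the tumours: same-numbered tumours had correlations of -0.03, 0.02 and -0.06 between their deviations from the group means. With the replicate block limma called 0 of all loci, and 10 of the 199 had an unadjusted p under 0.05, against 4.43% of all loci.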
